A study of Mus musculus with 26 samples.

Results

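The stromal cells of the wild-type mouse mammary gland at 3 months of age were set against the epithelial cells of the same glands. The members are 6 of the 26 RNA-seq libraries of the series, chosen from their labels by genotype, age and sorted fraction: 2 stromal libraries (pools F79 and F81), 2 luminal and 2 basal libraries of the same pools. Epithelium is the mean of the luminal and the basal group on the log2 scale, so a fold change is not the ratio of arithmetic mean levels. The mice are of the B6.129S1 background, each pool holds cells of 3 mice, and glands were minced, kept in freezing medium and dissociated before sorting on the surface proteins EpCAM and CD49f. Those 2 proteins are products of Epcam and Itga6, so the levels of both genes describe the gates. All 6 libraries are wild type, with no treatment named; the other 20 libraries are Snai2-null pools and wild-type pools of 12 months, and the 12-month wild-type stromal, luminal and basal libraries (pools A1 and A2) serve below as a second set of samples.

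The mammary gland is a branched epithelial tree in a bed of connective tissue. Its ducts have an inner layer of luminal cells, which make milk, and an outer layer of basal, or myoepithelial, cells, which contract and lie on the basement membrane. The stroma, chiefly fibroblasts with vessels, nerves, immune cells and fat around them, builds the collagen matrix and sends growth factors whose receptors sit on the epithelium.

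Values are CPM, read counts scaled to a common library total, in the order pool F79 then pool F81 within each fraction. Fold changes are log2 of stroma over epithelium with their standard error (SE), from a model over all 26 libraries; a gene was called where the p adjusted over all 15917 genes tested was under 0.05. The 2 stromal libraries hold 4568078 and 3826528 counts, the luminal ones 5851351 and 5523449, and the basal ones 5186916 and 16649904. Mitochondrial ribosomal RNA took 18 and 17.2% of counts in stroma, against 29.8 and 31.8% in luminal and 23.8 and 30.6% in basal cells; its part in the fold changes was not tested. In the Snai2-null pool A5, the library labelled stromal had 1020 CPM of the keratin gene Krt14 and 23.9 CPM of Col1a1, and the library labelled luminal-basal had 34.8 and 1220 CPM. Those 2 libraries enter no comparison, but they enter the estimate of the spread, so the main counts are given with and without them.

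Of 15917 genes, 1045 were higher and 434 lower in stroma, which are 6.57% and 2.73% of those tested. List counts below are to be read beside these shares. Without the 2 A5 libraries 2508 genes were called; with the pool as a block, which pairs the fractions cut from the same mice, 882. Leaving out the stromal library of pool F79 left 160 calls, and leaving out any other 3-month library left at most 584. The stromal values lay above all 4 epithelial values for 991 of the 1045 genes called higher and below all 4 for 413 of the 434 called lower; over all genes tested the shares were 18.7% and 18.2%. Among the calls, 994 of the higher and 418 of the lower genes code for protein. The median log2 fold change of all genes was -0.11. In these bulk libraries, fewer cells of a type and less RNA per cell cannot be told apart.

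The fractions carried the markers of their labels. Col1a1, on chromosome 11 (94936224 to 94953042, plus strand, GRCm38), encodes the main chain of type I collagen; it had 3563 and 2159 CPM in stroma, against 48.8 and 61.0 CPM in luminal and 58.3 and 68.5 CPM in basal cells. Its log2 fold change was 5.60 ± 1.24 (adjusted p = 0.0143, 0.0509 with the pool block and 2.73e-06 without the A5 libraries), and 5.19 to 6.03 with 1 library left out. Mmp2, a gelatin-cutting matrix protease gene on chromosome 8 (92827291 to 92853420, plus strand), had 792 and 1039.8 CPM in stroma, against 17.2 and 26.2 CPM in luminal and 167 and 129 CPM in basal cells. Basal cells thus held more Mmp2 than luminal cells, and the call (4.01 ± 0.72, adjusted p = 0.00382) held with each library left out. Vim, the mesenchymal intermediate filament, had 1436 and 1443 CPM in stroma, against 48.4 and 60.1 CPM in luminal and 267 and 232 CPM in basal cells (3.63 ± 0.73, adjusted p = 0.0076; up to 0.0671 without luminal F79, stromal F79 or basal F81).

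Of 19 fibroblast markers tested, 16 were higher in stroma and none lower, beside 6.57% and 2.73% of all genes, with a median log2 fold change of 5.45. All 19 lay above every epithelial library, as did 18.7% of all genes. Pdgfra, the receptor that marks fibroblasts, had 926 and 973 CPM in stroma, against 15.3 and 14.1 CPM in luminal and 27.7 and 21.9 CPM in basal cells (5.64 ± 1.62, adjusted p = 0.0442; 0.0968 with the pool block). Thy1, a surface glycoprotein, showed 353 and 300 CPM in stroma, against 6.34 and 7.99 CPM in luminal and 8.22 and 8.03 CPM in basal cells (5.42 ± 1.26, adjusted p = 0.0181; 0.0529 with the block). The 3 markers that missed the threshold were Dcn, at 4.28 ± 1.28 (adjusted p = 0.0509), Clec3b, at 5.03 ± 1.5 (adjusted p = 0.0513), and Ly6a, at 2.58 ± 1.21 (adjusted p = 0.225). Ly6a stood apart in that luminal cells held 144 and 102 CPM of it. The list count was 19 without the A5 libraries, 2 with the block, and 1 to 3 with one 3-month library left out, and the calls of Pdgfra and Thy1 were lost without any of the 6.

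Epcam, the epithelial adhesion molecule on chromosome 17 (87635979 to 87651129, plus strand) and a gene of the gates, had 93.1 and 145 CPM in stroma, against 1090.2 and 818 CPM in luminal and 306 and 294 CPM in basal cells (-2.17 ± 0.43, adjusted p = 0.00484; 0.122 without stromal F79). Krt8, a luminal keratin, had 35.7 and 80 CPM in stroma, against 748 and 470 CPM in luminal and 67.5 and 93.6 CPM in basal cells (-1.94 ± 0.63, adjusted p = 0.0637). Krt14, a basal keratin, had 3.60 and 8.68 CPM in stroma, against 23.2 and 46.9 CPM in luminal and 734 and 651 CPM in basal cells (-4.66 ± 1.62, adjusted p = 0.0909). Both keratins are high in one epithelial layer, and neither contrast with the mean of the layers passed the threshold. Of 18 luminal markers, 4 were lower in stroma than in epithelium (0 to 4 with 1 library left out) and 15 lower than in luminal cells, where 3.67% of all genes were called lower. Their summed level was 609 and 904 CPM in stroma, so stroma held detectable luminal transcript, against 7669 and 5593 CPM in luminal and 1355 and 1270.3 CPM in basal cells. Of 15 basal markers 1 was called lower, Itga6, a gene of the gates (0 with the pool block), and 14 were without the A5 libraries.

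Markers of the other cells a stromal gate can hold were mostly uncalled. None of 15 endothelial, 12 pericyte, 12 myeloid or 5 lymphocyte markers was called in either direction; without the A5 libraries 4 pericyte markers were higher and 1 lower, and 1 endothelial and 1 lymphocyte marker were higher. The pericyte sum was 790 and 506 CPM in stroma, against 245 and 318 CPM in luminal and 2680 and 939 CPM in basal cells. The myeloid sum was 44.6 and 103 CPM in stroma, against 129 and 149 CPM in luminal and 31.5 and 49.1 CPM in basal cells. Basal cells held the highest pericyte sum, but over the 12 pericyte markers the median log2 fold change was 1.93. Of the 12, 6 lay above every epithelial library, as did 18.7% of all genes. On only the libraries compared, 8 of 11 were called higher, in a fit that called 2534 genes higher in all, against 1045 in the main fit. In the main fit 3 of the 12 lay below 0, among them Cnn1, whose log2 fold change was -4.82 to -3.97 with 1 library left out. The part of pericytes in other differences was not tested. The endothelial sum was 240 and 299 CPM in stroma, against 180 and 202 CPM in luminal and 393 and 231 CPM in basal cells. Pecam1, the endothelial adhesion molecule, had 22.2 and 34.3 CPM in stroma, against 20 and 21.7 CPM in luminal and 46.8 and 32.2 CPM in basal cells, so the groups overlapped. Ptprc, which marks all leukocytes, had 1.90 and 4.77 CPM in stroma, against 1.79 and 3.47 CPM in luminal and 1.34 and 2.46 CPM in basal cells. The pericyte gene Rgs5 had 349 and 237 CPM in stroma, against 47.5 and 66.2 CPM in luminal and 275 and 85.4 CPM in basal cells (1.54 ± 0.87, adjusted p = 0.335). Adipoq, the adipocyte hormone, was at 0 and 0.434 CPM in stroma, against 0.163 and 0 CPM in luminal and 0.765 and 0 CPM in basal cells. Of 11 adipocyte markers, Lpl was higher and Lipe lower in stroma.

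**Figure D1:**
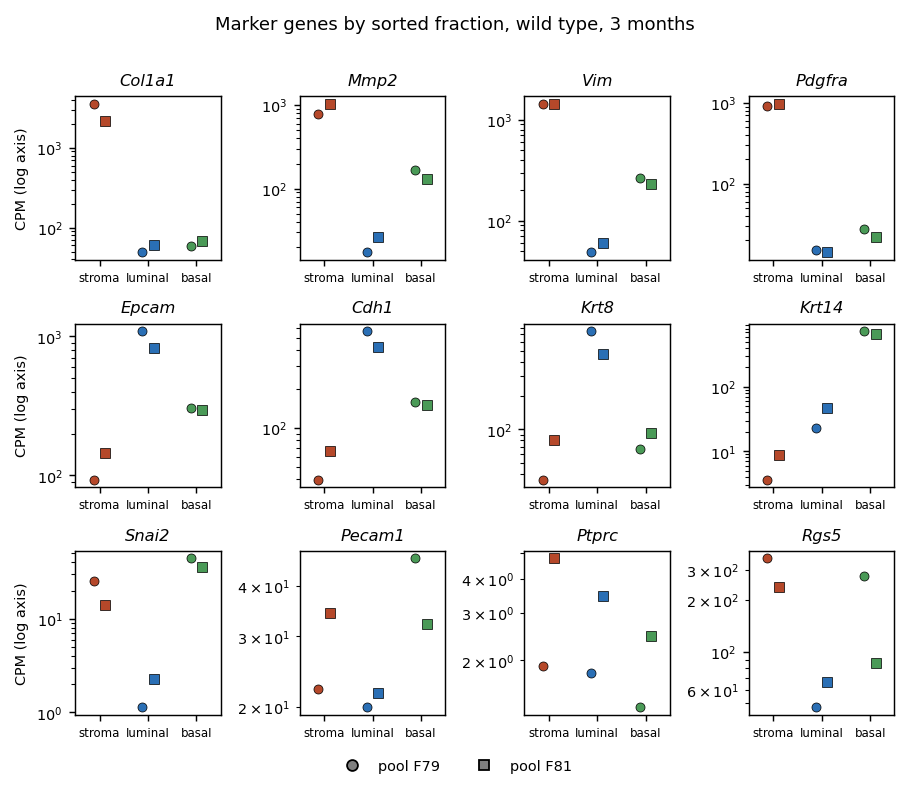
Levels of 12 marker genes (CPM, log axis) in stromal, luminal and basal libraries of wild-type glands at 3 months; circles are pool F79 and squares pool F81. Col1a1, Mmp2, Vim and Pdgfra are highest in stroma, Epcam, Cdh1 and Krt8 in luminal cells and Krt14 in basal cells, while Pecam1 and Ptprc overlap between fractions.

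Among the 26 pathway lists, the collagen list had the highest share of members called higher. Of 24 genes for fibrillar and fibril-associated collagens and their processing enzymes, 22 were higher in stroma and none lower (median 4.88), beside 6.57% of all genes tested, and 22 lay above every epithelial library. Col3a1, the type III chain of loose connective tissue, had 6312 and 4722 CPM in stroma, against 84 and 91.3 CPM in luminal and 102 and 98.6 CPM in basal cells (5.88 ± 1.33, adjusted p = 0.0162). Serpinh1, the collagen chaperone HSP47, had 217 and 180 CPM in stroma, against 9.75 and 14.1 CPM in luminal and 83.6 and 55.3 CPM in basal cells (2.79 ± 0.30, adjusted p = 2.26e-05). Basal cells lay between the other fractions for this chaperone. Plod2, a lysyl hydroxylase that prepares collagen for cross-linking, had 195 and 145 CPM in stroma, against 8.94 and 12.5 CPM in luminal and 48.4 and 42.6 CPM in basal cells (2.94 ± 0.37, adjusted p = 7.52e-05). P4ha1, a prolyl hydroxylase subunit, had 55.6 and 61.2 CPM in stroma, against 3.90 and 7.29 CPM in luminal and 20.5 and 17.3 CPM in basal cells (2.51 ± 0.37, adjusted p = 0.000423). Bmp1, which trims the collagen propeptide, was 1.93 ± 0.28 higher (adjusted p = 0.000359). With 1 library left out, adjusted p ran from 0.0506 to 0.104 for Col3a1 (0.0528 with the pool block), while the calls of Serpinh1, Plod2, P4ha1 and Bmp1 held each time.

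Col12a1 was not called, with 114 and 77.6 CPM in stroma, against 11.2 and 30.0 CPM in luminal and 273 and 342 CPM in basal cells (0.26 ± 0.53, adjusted p = 0.85). Col14a1 had 772 and 487 CPM in stroma, against 28.4 and 46.2 CPM in luminal and 718 and 477 CPM in basal cells (2.08 ± 0.36, adjusted p = 0.00176; 0.0657 without stromal F79, 0.556 with epithelium as 1 group), so only the luminal libraries lay well below stroma. Both were picked after their values were seen. The collagen count was 23 without the A5 libraries, 14 with the pool block and 6 to 11 with one 3-month library left out.

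Of 34 genes for proteoglycans, elastic fibres and matricellular proteins, 27 were higher in stroma and none lower (median 3.34), beside 6.57% and 2.73% of all genes. Sparc, a collagen-binding matricellular protein, had 4453 and 3166 CPM in stroma, against 116 and 198 CPM in luminal and 2306 and 1327 CPM in basal cells (2.83 ± 0.31, adjusted p = 2.42e-05). Bgn, the small proteoglycan biglycan, had 2061 and 1007 CPM in stroma, against 48.8 and 93.1 CPM in luminal and 927 and 709 CPM in basal cells (2.67 ± 0.30, adjusted p = 2.76e-05). Fbln2, an elastic-fibre fibulin, had 301 and 232 CPM in stroma, against 19.7 and 21.5 CPM in luminal and 63.1 and 74.4 CPM in basal cells (2.82 ± 0.34, adjusted p = 5.07e-05). In all 3 the stromal values were highest and the luminal values lowest. With the 4 epithelial libraries taken as 1 group, the adjusted p of Sparc was 0.12 and that of Bgn 0.153, and that of Fbln2 was 0.01. The count was 11 with the pool block and 7 to 11 with 1 library left out.

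The basement membrane list split by chain. Of its 22 genes, 10 were higher and 3 lower in stroma (13 and 8 without the A5 libraries; 8 and 1 with the pool block; 7 to 8 and 0 to 1 with 1 library left out). Col4a1 (chromosome 8, 11198423 to 11312826, minus strand) and Col4a2, the common chains of type IV collagen, rose with Hspg2, the proteoglycan perlecan, Lamb1, Lamb2, Lamc1 and Lama4. Hspg2 had 1065 and 1007.5 CPM in stroma, against 43.6 and 47.8 CPM in luminal and 289 and 314 CPM in basal cells (3.14 ± 0.32, adjusted p = 9.98e-06). Lamb1, a laminin beta chain, had 565 and 477 CPM in stroma, against 17.1 and 24.5 CPM in luminal and 196 and 125 CPM in basal cells (3.17 ± 0.34, adjusted p = 2.26e-05). Lama4, a laminin alpha chain of vessels and muscle, had 366 and 314 CPM in stroma, against 19.7 and 19.6 CPM in luminal and 34.4 and 47.0 CPM in basal cells (3.59 ± 0.44, adjusted p = 7.52e-05). These calls held with each library left out, but for Lamb2 (0.124 without stromal F79).

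The alpha chains that were lower in stroma were Lama1 and Lama5, together with Col4a6. Lama1 (chromosome 17, 67697259 to 67822647, plus strand), a chain of the embryonic and myoepithelial laminin, had 1.48 and 1.95 CPM in stroma, against 9.26 and 16.0 CPM in luminal and 242 and 164 CPM in basal cells (-4.87 ± 1.29, adjusted p = 0.0298; 0.0757 with the block). Lama5, the broad epithelial chain, had 30.7 and 33.0 CPM in stroma, against 402 and 191 CPM in luminal and 102 and 143 CPM in basal cells (-2.58 ± 0.68, adjusted p = 0.0263). Lama1 was thus highest in basal and Lama5 in luminal cells. Col4a6, a type IV chain of epithelial membranes, had 6.35 and 8.24 CPM in stroma, against 35.9 and 41.7 CPM in luminal and 94.5 and 92.2 CPM in basal cells (-3.04 ± 0.78, adjusted p = 0.0222; 0.0557 with the block). The stromal counterpart Lama2, the merosin chain, was chosen after its values were seen; it had 1354 and 1251 CPM in stroma, against 15.6 and 17.5 CPM in luminal and 24.9 and 24.6 CPM in basal cells (6.01 ± 1.46, adjusted p = 0.0221; 0.0573 with the block). With 1 library left out the adjusted p reached 0.278 for Lama1, 0.245 for Lama5, 0.239 for Col4a6 and 0.127 for Lama2; the calls of Lama1, Col4a6 and Lama2 were lost without any of the 6 libraries, and that of Lama5 without any but the luminal library of F81.

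Matrix proteases and their inhibitors also divided. Of 32 genes tested, 21 were higher and 3 lower in stroma (median 3.02; 24 and 4 without the A5 libraries; 14 and 2 with the pool block; 9 to 12 and 0 to 3 with 1 library left out). Htra1, a secreted serine protease, had 125 and 144 CPM in stroma, against 4.71 and 2.43 CPM in luminal and 6.69 and 6.05 CPM in basal cells (4.81 ± 0.59, adjusted p = 9.81e-05). Adam12, a membrane metalloprotease, had 186 and 237 CPM in stroma, against 4.06 and 5.38 CPM in luminal and 17.4 and 13.1 CPM in basal cells (4.64 ± 0.59, adjusted p = 0.000171). Mmp14, the membrane protease that activates pro-MMP2, had 405 and 280 CPM in stroma, against 85.8 and 65.1 CPM in luminal and 103 and 78.8 CPM in basal cells (2.05 ± 0.31, adjusted p = 0.000552). Calls of these 3 and of Mmp2 held with each library left out. Plat, tissue plasminogen activator, was 3.37 ± 0.49 higher (adjusted p = 0.000454).

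The genes that were lower are the epithelial membrane protease St14 (matriptase) and its inhibitors Spint1 and Spint2. Spint1 had 4.86 and 7.81 CPM in stroma, against 94.1 and 82.1 CPM in luminal and 32.9 and 35.8 CPM in basal cells (-3.12 ± 0.63, adjusted p = 0.00534). St14 had 10.6 and 18.7 CPM in stroma, against 161 and 114 CPM in luminal and 26.8 and 29.3 CPM in basal cells (-2.09 ± 0.51, adjusted p = 0.0164; 0.0533 with the block). Spint2 was -2.76 ± 0.67 (adjusted p = 0.0163). Without stromal library F79 the adjusted p was 0.124 for Spint1; for Spint2 and St14 the calls were also lost without luminal F79 or stromal F81, and the highest values were 0.222 and 0.241.

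Genes of epithelial junctions and polarity ran the other way. Of 32 tested, 11 were lower in stroma and none higher (median -1.95), beside 2.73% of all genes; 15 were lower without the A5 libraries, 5 with the pool block and 0 to 6 with 1 library left out. Cxadr, a tight-junction receptor, had 12.7 and 23.9 CPM in stroma, against 173 and 221 CPM in luminal and 168 and 195 CPM in basal cells (-3.37 ± 0.57, adjusted p = 0.00173). Cdh1, E-cadherin, had 39.6 and 66.2 CPM in stroma, against 563 and 424 CPM in luminal and 160 and 151 CPM in basal cells (-2.39 ± 0.51, adjusted p = 0.0076). Jup, plakoglobin, had 51.4 and 63.8 CPM in stroma, against 275 and 249 CPM in luminal and 194 and 227 CPM in basal cells (-2.03 ± 0.43, adjusted p = 0.0073). Lsr, a protein of tricellular junctions, had 4.86 and 10.6 CPM in stroma, against 72.5 and 53.1 CPM in luminal and 52.8 and 46.7 CPM in basal cells (-2.85 ± 0.84, adjusted p = 0.044; 0.103 with the block). Stroma was below all 4 epithelial libraries for each of these. Without stromal library F79 the adjusted p of Cxadr was 0.0657 and that of Cdh1 0.156; that of Jup reached 0.135, and its call was also lost without stromal F81. The call of Lsr was lost without any of the 6 libraries.

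Against luminal cells alone 19 of the 32 junction genes were lower in stroma, and against basal cells 2, where 3.67% and 1.28% of all genes were called lower. Relative to basal cells 12 of the 32 had a log2 fold change above 0. Cldn4, a claudin, had 6.77 and 11.9 CPM in stroma, against 115 and 70.0 CPM in luminal and 2.10 and 6.95 CPM in basal cells. Pkp2, a plakophilin, had 5.29 and 5.42 CPM in stroma, against 34.8 and 36.3 CPM in luminal and 2.68 and 1.20 CPM in basal cells. In both, chosen after their values were seen, the luminal cells alone were high.

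Repressors of the Snail and ZEB families bind the E-box CAGGTG, which reads CACCTG on the other strand. The stretches below are promoters of junction and epithelial-factor genes called lower in stroma, from RefSeq (GRCm38.p6), read 5′ to 3′ on the gene's strand; capitals mark each copy of the E-box on either strand, and they are shown because these genes were called together and hold the motif. Of 24 called members of both lists, 8 had a promoter in the table and 4 of those 8 held the motif, so the ones printed are a choice from those with it.
Epcam, chr17:87635772-87635978 plus strand: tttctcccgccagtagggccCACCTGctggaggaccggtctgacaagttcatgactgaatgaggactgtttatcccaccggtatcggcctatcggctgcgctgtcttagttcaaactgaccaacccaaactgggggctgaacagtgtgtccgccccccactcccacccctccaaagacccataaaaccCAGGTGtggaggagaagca
Lsr, chr7:30973513-30973719 minus strand: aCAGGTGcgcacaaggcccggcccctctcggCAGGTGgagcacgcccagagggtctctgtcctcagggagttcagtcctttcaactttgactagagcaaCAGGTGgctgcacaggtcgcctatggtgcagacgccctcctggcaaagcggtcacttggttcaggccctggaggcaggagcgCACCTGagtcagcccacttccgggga
Elf3, chr1:135258587-135258632 minus strand: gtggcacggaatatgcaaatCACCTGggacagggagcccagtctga
Of 10807 tested genes with a promoter in that table, 1685 (15.6%) held the motif within 250 bases before the start on either strand. Only 17 of the 32 junction genes and 9 of the 23 epithelial factors had a promoter there, as did 67.9% of all genes tested, each under 80%. A comparison of these lists with all genes is therefore void. None is drawn here, also not from the 4 of 8 given above. A match is a run of letters, not a measured binding site.

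**Figure D2:**
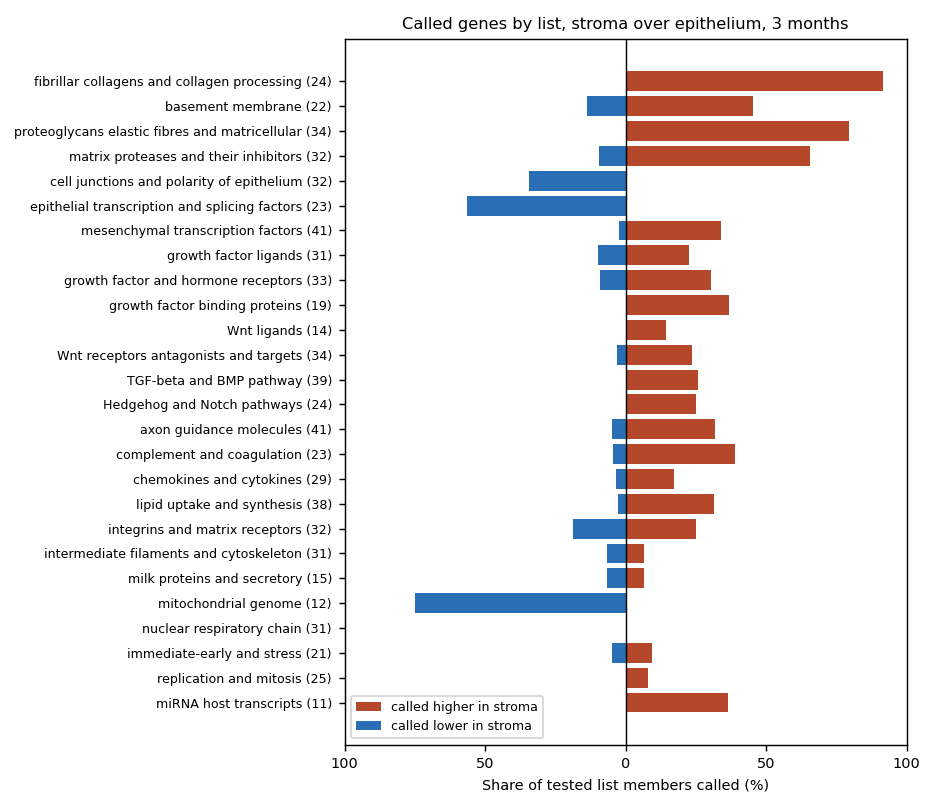
Share of the tested members of 26 gene lists called higher (right) or lower (left) in stroma than in epithelium at 3 months. Collagen genes reach the highest share on the right, with 22 of 24, and the epithelial factors the highest on the left among the lists of nuclear genes, with 13 of 23.

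Of 23 epithelial transcription and splicing factors, 13 were lower in stroma and none higher (median -2.51; 10 with the pool block, 1 to 8 with 1 library left out). Sox9, a progenitor factor of the gland, had 43.8 and 56.6 CPM in stroma, against 421 and 331 CPM in luminal and 156 and 185 CPM in basal cells (-2.34 ± 0.36, adjusted p = 0.000602). Esrp1, which directs epithelial splicing, had 9.31 and 16.1 CPM in stroma, against 163 and 162 CPM in luminal and 86.4 and 75.1 CPM in basal cells (-3.17 ± 0.60, adjusted p = 0.00382). Tfap2a was -3.37 ± 0.67 (adjusted p = 0.00494) and Sox10 -3.13 ± 0.72 (adjusted p = 0.0122). Both layers were above stroma in all 4. Only Sox9 kept its call with each library left out: without stromal F79 the adjusted p was 0.0971 for Esrp1 and 0.109 for Tfap2a, and Sox10 reached 0.142 and was lost without either stromal library. Elf3, whose promoter is printed above, had 1.90 and 5.21 CPM in stroma, against 31.2 and 29.5 CPM in luminal and 14.3 and 12.7 CPM in basal cells (-2.51 ± 0.70, adjusted p = 0.0297; 0.0688 to 0.361 with 1 library left out).

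Of 41 mesenchymal transcription factors, 14 were higher in stroma and 1 lower (median 3.68), and 33 lay above every epithelial library; 28 were called higher without the A5 libraries, 4 with the pool block and 2 with any 1 library left out. Over all genes tested 6.57% were higher and 2.73% lower, and 18.7% lay above every epithelial library, so the 1 lower is near the share of all genes. Osr1, a factor of fibroblast progenitors, had 70.9 and 56.4 CPM in stroma, against 2.76 and 2.26 CPM in luminal and 43.2 and 22.5 CPM in basal cells (2.80 ± 0.34, adjusted p = 5.48e-05). Prrx1, a homeobox factor of connective tissue, had 512 and 406 CPM in stroma, against 10.9 and 11.6 CPM in luminal and 30.8 and 36.4 CPM in basal cells (4.56 ± 1.02, adjusted p = 0.0145). Tshz3, a zinc-finger factor, had 54.4 and 55.7 CPM in stroma, against 0.650 and 1.74 CPM in luminal and 5.35 and 3.12 CPM in basal cells (4.62 ± 1.11, adjusted p = 0.0187; 0.0508 with the block). Osr1 was higher in basal than in luminal libraries, and Prrx1 and Tshz3 were low in both layers. The calls of Osr1 and Tcf4 (2.12 ± 0.36, adjusted p = 0.00139) held with each library left out, while Prrx1 and Tshz3 ranged up to 0.102 and 0.110 and were lost without any 1 of the 6. Foxp1, the one factor called lower, had 69.0 and 78.1 CPM in stroma, against 91.3 and 113 CPM in luminal and 240 and 266 CPM in basal cells (-1.13 ± 0.34, adjusted p = 0.0404; 0.0808 with the block; up to 0.334 and lost without any of the 6; not called with RLE scaling).

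Snai2, the gene deleted in the series' mutants and a repressor of E-cadherin, was not called. It had 25.6 and 13.9 CPM in stroma, against 1.14 and 2.26 CPM in luminal and 44.0 and 35.8 CPM in basal cells (1.26 ± 0.85, adjusted p = 0.442). Its order was basal, stroma, luminal, with stroma below basal in both pools. Of the related repressors, Zeb1 had 311 and 224 CPM in stroma, against 4.71 and 12.3 CPM in luminal and 22.2 and 17.1 CPM in basal cells (4.37 ± 1.26, adjusted p = 0.0449; 0.0911 with the block; up to 0.225 and lost without any of the 6). Zeb2 was at 4.17 ± 1.28 (adjusted p = 0.0581) and Snai1 at 1.56 ± 0.77 (adjusted p = 0.238). Zeb1, Zeb2 and Snai1 were named after their values were seen.

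Of the FGF genes, Fgf10, Fgf2, Fgf7 and Fgf18 were called higher and Fgfr2 and Fgfr3 lower in stroma. Of 31 ligands tested, 7 were higher and 3 lower in stroma, and of 33 receptors 10 were higher and 3 lower; with the pool block 5 ligands and 5 receptors were called higher and 2 and 3 lower. With 1 library left out 1 to 4 ligands and 2 to 6 receptors were called higher, and 0 to 1 and 0 to 2 lower. Fgf10 (chromosome 13, 118669791 to 118792115, plus strand), the mesenchymal ligand needed for the mammary bud, had 54.8 and 51.0 CPM in stroma, against 0.325 and 0.868 CPM in luminal and 0.191 and 0.779 CPM in basal cells (6.47 ± 1.37, adjusted p = 0.0104). Fgf2, basic FGF, had 128 and 103 CPM in stroma, against 7.48 and 11.5 CPM in luminal and 31.9 and 53.9 CPM in basal cells (2.51 ± 0.42, adjusted p = 0.00126). Fgfr2 (chromosome 7, 130162451 to 133123350, minus strand), whose epithelial splice form is the receptor of FGF10 and FGF7, had 46.3 and 60.1 CPM in stroma, against 571 and 424 CPM in luminal and 365 and 250 CPM in basal cells (-2.88 ± 0.56, adjusted p = 0.00467). Fgf10 and Fgf2 were thus highest in stroma, and Fgfr2 lowest there. Fgfr3, a second receptor, had 1.48 and 3.69 CPM in stroma, against 10.1 and 13.9 CPM in luminal and 17.2 and 20.7 CPM in basal cells (-2.54 ± 0.76, adjusted p = 0.0402), while Fgfr1 overlapped (0.14 ± 0.30, adjusted p = 0.855). The Fgf2 call held with each library left out. That of Fgfr2 was lost only without stromal F79 (0.105), that of Fgf10 without any library but stromal F81 (up to 0.0831), and that of Fgfr3 without any of the 6 (up to 0.405).

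Fgf7, Igf1 and Fgf18 were called higher in stroma but fell outside the naming rule, and were picked after their values were seen. Fgf1, the other FGF ligand of the list that was tested, went the other way and was not called, with 22.6 and 26.5 CPM in stroma, against 19 and 52.8 CPM in luminal and 399 and 274 CPM in basal cells (-2.16 ± 0.83, adjusted p = 0.123). Fgf7, keratinocyte growth factor, had 70.6 and 52.1 CPM in stroma, against 1.14 and 1.91 CPM in luminal and 2.10 and 4.97 CPM in basal cells (4.69 ± 1.21, adjusted p = 0.0269; 0.0695 with the pool block). Igf1, the ligand through which growth hormone acts on ducts, had 538 and 461 CPM in stroma, against 17.1 and 16.8 CPM in luminal and 7.84 and 12.3 CPM in basal cells (5.25 ± 1.45, adjusted p = 0.0378; 0.0781 with the block). Its receptor Igf1r overlapped between fractions (-0.47 ± 0.35, adjusted p = 0.485), and Ghr, the growth hormone receptor, was 1.25 ± 0.32 higher in stroma (adjusted p = 0.0195; 0.0502 with the block; lost without any library but luminal F81). Fgf18 was at 5.50 ± 1.61 (adjusted p = 0.045; 0.101 with the block). Calls of Fgf7, Igf1 and Fgf18 were lost without any of the 6 libraries, with adjusted p up to 0.159, 0.177 and 0.257.

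The ligands that were lower in stroma were Pdgfc, Tgfa and Bdnf. A receptor gene of each, in turn Pdgfra, Egfr and Ntrk2, was called higher there. Pdgfc had 11.4 and 13.7 CPM in stroma, against 29.6 and 40.3 CPM in luminal and 159 and 108 CPM in basal cells (-2.44 ± 0.52, adjusted p = 0.00713). Its receptor gene Pdgfra, given above, was higher in stroma. Bdnf, the neurotrophin, had 0.635 and 3.04 CPM in stroma, against 11.4 and 21.2 CPM in luminal and 53.3 and 45.8 CPM in basal cells (-3.94 ± 1.09, adjusted p = 0.031; 0.0552 with the block). Ntrk2, the BDNF receptor, had 365 and 304 CPM in stroma, against 8.78 and 11.5 CPM in luminal and 9.75 and 15.4 CPM in basal cells (4.88 ± 1.24, adjusted p = 0.0264; 0.0634 with the block); it was named after its values were seen. Tgfa, an EGF receptor ligand, had 5.29 and 3.25 CPM in stroma, against 22.8 and 25.5 CPM in luminal and 40.7 and 58.2 CPM in basal cells (-3.01 ± 0.82, adjusted p = 0.029). Egfr itself had 869 and 699 CPM in stroma, against 67.1 and 95.2 CPM in luminal and 343 and 289 CPM in basal cells (2.29 ± 0.33, adjusted p = 0.000325). Pdgfc lost its call without either stromal library (up to 0.129), and Tgfa, Bdnf and Ntrk2 without any of the 6 (up to 0.237, 0.329 and 0.147); Egfr kept it.

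Among the other receptors, Axl, the GAS6 receptor, had 801 and 658 CPM in stroma, against 20.8 and 34.2 CPM in luminal and 286 and 277 CPM in basal cells (3.05 ± 0.31, adjusted p = 9.98e-06). Nr3c1, the glucocorticoid receptor, had 123 and 117 CPM in stroma, against 32.3 and 32.5 CPM in luminal and 64.4 and 59.9 CPM in basal cells (1.42 ± 0.29, adjusted p = 0.00497). Vdr, the vitamin D receptor, was lower in stroma at 8.88 and 13.2 CPM, against 84.8 and 90.1 CPM in luminal and 220 and 177 CPM in basal cells (-3.57 ± 0.80, adjusted p = 0.0126; 0.0521 with the block). Esr1, the oestrogen receptor, had 74.0 and 83.7 CPM in stroma, against 144 and 166 CPM in luminal and 9.94 and 23.5 CPM in basal cells, so stroma lay between the layers (0.62 ± 0.80, adjusted p = 0.733). Axl held with each library left out; Nr3c1 was lost without stromal F79 (0.0739) and Vdr without either stromal library (up to 0.183).

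**Figure D3:**
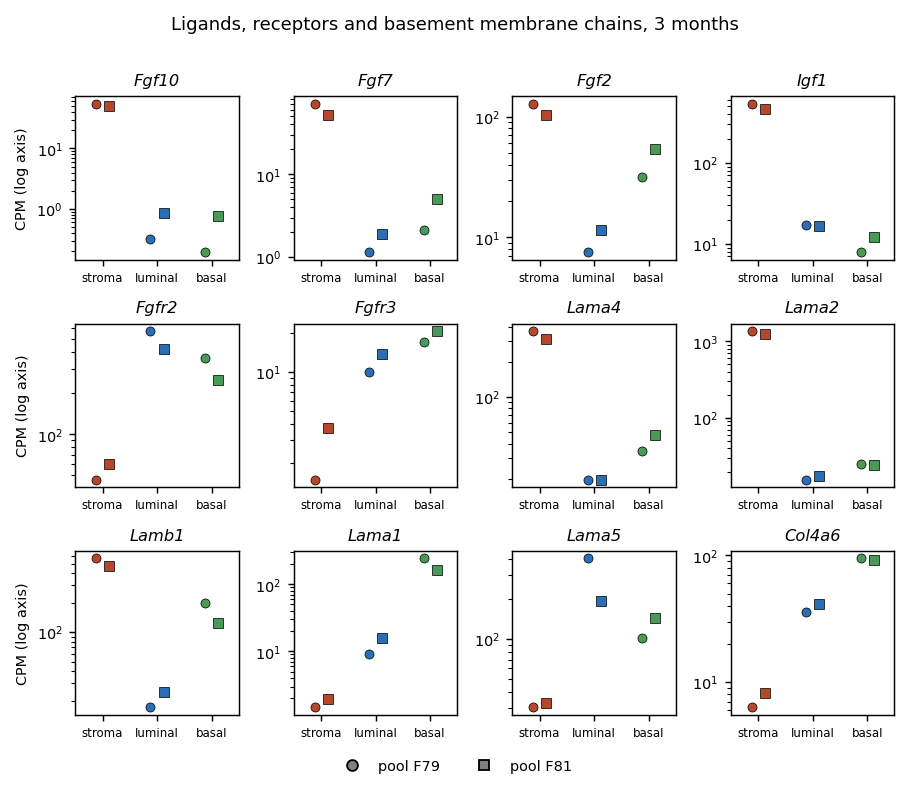
Levels of 12 ligand, receptor and basement membrane genes (CPM, log axis) in stromal, luminal and basal libraries at 3 months; circles are pool F79 and squares pool F81. Fgf10, Fgf7, Fgf2 and Igf1 are highest in stroma and Fgfr2 and Fgfr3 lowest there, and Lama4, Lama2 and Lamb1 lie on the other side from Lama1, Lama5 and Col4a6.

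Growth factor binding proteins were higher in 7 of 19 and lower in none, beside 6.57% and 2.73% of all genes; 4 were higher with the pool block and 1 to 4 with 1 library left out. Igfbp4, an inhibitory IGF binder, had 449 and 304 CPM in stroma, against 15.8 and 15.3 CPM in luminal and 55.4 and 43.3 CPM in basal cells (3.76 ± 0.71, adjusted p = 0.00529; 0.0682 without stromal F79). Cyr61, a matricellular CCN protein, had 688 and 485 CPM in stroma, against 86.3 and 113 CPM in luminal and 147 and 113 CPM in basal cells (2.37 ± 0.56, adjusted p = 0.0164; up to 0.173 with 1 library left out, lost without any of the 6).

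Of 14 Wnt and R-spondin ligands tested, Wnt2 and Wnt10b were higher in stroma and none was lower (1 higher with the pool block, 0 to 1 with 1 library left out). Wnt2 had 71 counts in the 2 stromal libraries and 3 in the 4 epithelial libraries, a ratio of 85.8 by summed counts over summed totals. Its counting interval was 28.2 to 426. Wnt10b had 48 counts against 0, at least 58.0-fold higher against a floor of 3 counts over the group. Intervals and floors cover counting error only. Both are canonical ligands, and at most 8.88 CPM was reached. Wnt4, the ligand that acts below the progesterone receptor, had 5.71 and 8.68 CPM in stroma, against 92.5 and 82.1 CPM in luminal and 3.44 and 12.5 CPM in basal cells (-1.89 ± 0.66, adjusted p = 0.0819). Of 34 Wnt receptors, antagonists and targets, 8 were higher and 1 lower in stroma (13 and 6 without the A5 libraries, 4 to 7 and 0 to 1 with 1 library left out). Beside these stand 6.57% higher and 2.73% lower over all genes, so the 1 lower member is near that share. Fzd1, a frizzled receptor, had 169 and 139 CPM in stroma, against 10.7 and 16.3 CPM in luminal and 84.1 and 77.5 CPM in basal cells (2.22 ± 0.27, adjusted p = 5.8e-05). Sfrp2, a secreted Wnt binder, had 324 and 197 CPM in stroma, against 8.45 and 8.16 CPM in luminal and 34.6 and 20.4 CPM in basal cells (4.11 ± 0.67, adjusted p = 0.00191). Nkd2, an inhibitor of the pathway within the cell, was 2.64 ± 0.36 higher (adjusted p = 0.00018) and Ror2, a receptor of WNT5A, 3.97 ± 0.77 (adjusted p = 0.004). These 4 calls held with each library left out. Rnf43, the ligase that removes frizzled receptors, was the member that was lower (-5.23 ± 1.15, adjusted p = 0.00947; up to 0.161, lost without either stromal library); Wnt2 was lost without stromal F79, luminal F79 or basal F81 (up to 0.0738) and Wnt10b without any of the 6 and with the pool block (0.0634).

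Of 39 TGF-beta and BMP pathway genes, 10 were higher and none lower in stroma; 15 were higher without the A5 libraries and 3 to 8 with 1 library left out, fewest without stromal F79. The shares over all genes were 6.57% higher and 2.73% lower. Nbl1, a secreted BMP antagonist, had 78.9 and 77.4 CPM in stroma, against 4.39 and 4.17 CPM in luminal and 16.8 and 19.2 CPM in basal cells (3.15 ± 0.56, adjusted p = 0.00205). Tgfbr3, the co-receptor betaglycan, had 840 and 749 CPM in stroma, against 54.3 and 94.8 CPM in luminal and 649 and 631 CPM in basal cells (1.86 ± 0.32, adjusted p = 0.0017). Nbl1 was low in both layers, and Tgfbr3 in luminal cells only. Id3, a target of BMP signals, was 2.03 ± 0.39 higher (adjusted p = 0.00353; 0.0917 without stromal F79).

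Hedgehog and Notch genes counted 6 higher of 24 and none lower; 4 were higher with the pool block and 2 to 5 with 1 library left out. Gli2, a transcription factor of the Hedgehog response, had 41.2 and 35.6 CPM in stroma, against 1.79 and 3.65 CPM in luminal and 4.97 and 4.67 CPM in basal cells (3.40 ± 0.58, adjusted p = 0.00135). Hhip, a Hedgehog-binding antagonist, had 9.73 and 8.46 CPM in stroma, against 0.488 and 0.521 CPM in luminal and 0.191 and 0.120 CPM in basal cells (4.95 ± 1.13, adjusted p = 0.0129). Notch2 had 240 and 310 CPM in stroma, against 78.3 and 76.9 CPM in luminal and 79.5 and 82.8 CPM in basal cells (1.79 ± 0.35, adjusted p = 0.0038). Cdon, a Hedgehog co-receptor, was 2.45 ± 0.52 higher (adjusted p = 0.0086), and Gli1, a target of the pathway named after its values were seen, was 3.31 ± 0.92 higher (adjusted p = 0.0301; 0.0513 with the block; up to 0.161 with 1 library left out). Ptch1 overlapped (-0.10 ± 0.37, adjusted p = 0.93). Gli2 and Notch2 held with each library left out, Cdon was lost without stromal F79 or basal F81 and Hhip without any library but stromal F81 (both up to 0.0917).

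Of 41 axon guidance genes, 13 were higher and 2 lower in stroma; 11 and 1 were with the pool block, and 3 to 9 and 0 to 1 with 1 library left out. In the main fit 6.57% of all genes were higher and 2.73% lower. Slit3, a secreted repellent, had 571 and 520 CPM in stroma, against 12.5 and 18.2 CPM in luminal and 53.7 and 58.5 CPM in basal cells (4.21 ± 0.68, adjusted p = 0.00191). Slit2 had 212 and 157 CPM in stroma, against 5.04 and 8.68 CPM in luminal and 81.5 and 104 CPM in basal cells (2.87 ± 0.42, adjusted p = 0.000392). Sema3c, a class 3 semaphorin, had 295 and 221 CPM in stroma, against 20 and 18.6 CPM in luminal and 145 and 115 CPM in basal cells (2.36 ± 0.33, adjusted p = 0.000213). These 3 calls held with each library left out. Guidance receptors were called in both directions: Plxnd1 (2.23 ± 0.48, adjusted p = 0.00735), Neo1 (1.11 ± 0.23, adjusted p = 0.00554), Robo1, Robo2, Plxna2 and Ephb2 were higher, and Epha2 and Plxnb1 lower. Without stromal F79 all 6 of these rises were lost (up to 0.0888 for Plxnd1 and 0.124 for Neo1), and with the block the adjusted p was 0.0554 for Robo1 and 0.0531 for Robo2. Epha2 had 17.1 and 21.3 CPM in stroma, against 73.0 and 76.8 CPM in luminal and 140 and 112 CPM in basal cells (-2.34 ± 0.55, adjusted p = 0.0144; up to 0.187, lost without either stromal library), and Plxnb1 was at -2.49 ± 0.74 (adjusted p = 0.0424; 0.0658 with the block; lost without any of the 6).

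Of 23 complement and coagulation genes, 9 were higher and 1 lower in stroma, beside 6.57% and 2.73% of all genes; 5 and 0 were with the pool block, and 2 to 5 and 0 with 1 library left out. Cd55, which shields cells from complement, had 340 and 188 CPM in stroma, against 63.1 and 59.9 CPM in luminal and 13.8 and 13 CPM in basal cells (3.20 ± 0.48, adjusted p = 0.000553). Cd59a, another shield, was lower at 5.08 and 9.76 CPM in stroma, against 15.6 and 15.6 CPM in luminal and 48.0 and 38.8 CPM in basal cells (-1.81 ± 0.52, adjusted p = 0.0329; 0.0705 with the block; lost without any of the 6). F5, coagulation factor V, had 10.2 and 20.2 CPM in stroma, against 1.46 and 0 CPM in luminal and 0 CPM in both basal libraries (6.91 ± 1.48, adjusted p = 0.00863; 0.0654 without basal F81). Among 29 chemokine and cytokine genes, 5 were higher and 1 lower; the counts were 13 and 2 without the A5 libraries, 2 and 0 with the pool block, and 0 to 3 and 0 with 1 library left out. Ackr3, a scavenger receptor of CXCL12, had 343 and 254 CPM in stroma, against 20.5 and 18.6 CPM in luminal and 95.2 and 84 CPM in basal cells (2.84 ± 0.60, adjusted p = 0.00933). Ccl11, eotaxin, had 518 and 240 CPM in stroma, against 11.1 and 11.3 CPM in luminal and 22.8 and 31.1 CPM in basal cells (4.45 ± 1.05, adjusted p = 0.0194; 0.0629 with the block). Csf1, the macrophage growth factor, had 326 and 209 CPM in stroma, against 31.4 and 62.7 CPM in luminal and 121 and 165 CPM in basal cells (1.71 ± 0.39, adjusted p = 0.0101). With 1 library left out these 3 ranged up to 0.109, 0.166 and 0.188, and each was lost without stromal F79 among others.

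Of 38 genes of lipid uptake and synthesis, 12 were higher and 1 lower in stroma (19 and 1 without the A5 libraries, 5 and 1 with the pool block, 2 to 3 and 0 with 1 library left out). All genes tested gave 6.57% higher and 2.73% lower, so the 1 lower lipid gene is near that share. Apoe, the lipoprotein ligand, had 732 and 1059.8 CPM in stroma, against 34.9 and 43.6 CPM in luminal and 447 and 348 CPM in basal cells (2.84 ± 0.27, adjusted p = 5.51e-06). Lrp1, a receptor that takes it up, had 1685 and 1752 CPM in stroma, against 53.0 and 70.0 CPM in luminal and 388 and 358 CPM in basal cells (3.50 ± 0.40, adjusted p = 3.2e-05). Both held with each library left out. Lpl, lipoprotein lipase, had 1327 and 939 CPM in stroma, against 27.6 and 29.9 CPM in luminal and 40.2 and 28.8 CPM in basal cells (5.17 ± 1.36, adjusted p = 0.0306; 0.0757 with the block). Dgat2, which makes triglyceride, was lower at 2.33 and 3.47 CPM in stroma, against 32.0 and 25.4 CPM in luminal and 4.78 and 4.37 CPM in basal cells (-1.98 ± 0.56, adjusted p = 0.0309; 0.0644 with the block). Lpl and Dgat2 were lost without any of the 6 libraries, with adjusted p up to 0.164 and 0.334.

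Of 32 integrins and matrix receptors, 8 were higher and 6 lower in stroma; 6 and 2 were with the pool block, and 2 to 4 and 0 to 2 with 1 library left out. Itga5, the fibronectin receptor chain, had 143 and 107 CPM in stroma, against 13 and 13 CPM in luminal and 42.3 and 42.6 CPM in basal cells (2.41 ± 0.46, adjusted p = 0.00398; 0.0692 without stromal F79). Gpc6, a glypican, had 387 and 288 CPM in stroma, against 8.78 and 19.3 CPM in luminal and 120 and 126 CPM in basal cells (3.02 ± 0.36, adjusted p = 4.87e-05). Itgb6, an epithelial integrin chain that activates TGF-beta, had 3.60 and 7.37 CPM in stroma, against 53.0 and 52.4 CPM in luminal and 17.0 and 15.2 CPM in basal cells (-2.40 ± 0.63, adjusted p = 0.0227). The collagen receptors of the DDR pair went apart: Ddr1 had 4.23 and 9.11 CPM in stroma, against 37.7 and 33.5 CPM in luminal and 43.4 and 45.3 CPM in basal cells (-2.57 ± 0.68, adjusted p = 0.0223; 0.0652 with the block). Ddr2, named after its values were seen, had 690 and 520 CPM in stroma, against 11.7 and 15.5 CPM in luminal and 22.4 and 19.2 CPM in basal cells (5.17 ± 1.26, adjusted p = 0.0219; 0.0667 with the block). Gpc6 held with each library left out, and the calls of Itgb6, Ddr1 and Ddr2 reached 0.298, 0.290 and 0.132, each lost without at least 5 of the 6.

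Some of the long RNAs higher in stroma carry microRNAs. The mature RNAs were not measured here; they are printed because their host transcripts are among the calls. Within Dnm3os, H19 and Mest lie the following, from RefSeq (GRCm38.p6), with the seed (bases 2 to 8) in capitals.
mmu-miR-199a-5p (Dnm3os): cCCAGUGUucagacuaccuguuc
mmu-miR-199a-3p (Dnm3os): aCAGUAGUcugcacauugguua
mmu-miR-214-5p (Dnm3os): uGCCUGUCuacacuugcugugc
mmu-miR-214-3p (Dnm3os): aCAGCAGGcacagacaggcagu
mmu-miR-675-5p (H19): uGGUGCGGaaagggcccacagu
mmu-miR-675-3p (H19): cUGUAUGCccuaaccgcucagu
mmu-miR-335-5p (Mest): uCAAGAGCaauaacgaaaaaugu
mmu-miR-335-3p (Mest): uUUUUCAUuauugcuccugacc
With 6 more in Rian, the 4 called hosts hold 14 mature microRNAs with 14 seeds, so no seed is shared between them.

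Of 11 host transcripts tested, these 4 were higher in stroma and none lower (median 2.55; 6 without the A5 libraries, 1 with the pool block and 1 with any 1 library left out). Dnm3os, an antisense transcript of Dnm3, had 43.6 and 68.8 CPM in stroma, against 2.44 and 2.95 CPM in luminal and 3.06 and 5.63 CPM in basal cells (4.01 ± 1.15, adjusted p = 0.039; 0.0718 with the block). Since no source used here gives the strand setting of the counting, its reads and those of Dnm3 may not be told apart. Rian, an imprinted RNA of the Dlk1 region, had 163 and 139 CPM in stroma, against 4.71 and 6.60 CPM in luminal and 17.8 and 29.7 CPM in basal cells (3.70 ± 0.99, adjusted p = 0.0322; 0.0857 with the block). Mest, imprinted as well, had 15 and 8.24 CPM in stroma, against 0.975 and 1.56 CPM in luminal and 2.10 and 3.83 CPM in basal cells (2.55 ± 0.77, adjusted p = 0.042; 0.0998 with the block). H19 (chromosome 7, 142575529 to 142578143, minus strand), the imprinted RNA beside Igf2, had 48.4 and 41.4 CPM in stroma, against 2.28 and 0.347 CPM in luminal and 0.765 and 0.659 CPM in basal cells (5.51 ± 1.02, adjusted p = 0.00368), and its call held with each library left out. Igf2 overlapped between fractions, with 16.7 and 6.94 CPM in stroma, against 5.85 and 5.56 CPM in luminal and 8.60 and 6.05 CPM in basal cells.

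Among the largest rises over all genes, Lrrc15, a fibroblast membrane protein, had 61.6 and 70.5 CPM in stroma, against 0.975 and 0.868 CPM in luminal and 0.191 and 0.359 CPM in basal cells (6.89 ± 1.24, adjusted p = 0.00496), and held with each library left out. Nos1, neuronal nitric oxide synthase, had 80.8 and 87.4 CPM in stroma, against 0.325 and 0.521 CPM in luminal and 0.382 and 1.56 CPM in basal cells (6.91 ± 1.61, adjusted p = 0.0174; 0.0527 with the block). Aox3, an aldehyde oxidase, had 40.6 and 24.7 CPM in stroma, against 0.325 and 0.347 CPM in luminal and 0.191 and 0.120 CPM in basal cells (7.09 ± 1.94, adjusted p = 0.035; 0.0769 with the block). Each was near 0 in both epithelial layers. Gpr176, an orphan receptor, had 105 counts in stroma and 2 in epithelium, a ratio of 190 (51.4 to 1591), and Myoc, myocilin, had 26 and 10.2 CPM in stroma, against 0 and 0.174 CPM in luminal and 0.574 and 0.0599 CPM in basal cells (6.82 ± 1.54, adjusted p = 0.0128). Nos1 and Aox3 were lost without any of the 6 libraries, Gpr176 and Myoc without 4 of them, with adjusted p up to 0.113, 0.18, 0.0677 and 0.121.

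Among the largest falls, Macc1 had 0.635 and 2.17 CPM in stroma, against 26.5 and 31.6 CPM in luminal and 25.0 and 20.4 CPM in basal cells (-4.18 ± 0.93, adjusted p = 0.0095; up to 0.171, lost without either stromal library). Sfn, the epithelial protein stratifin, had 5.71 and 12.4 CPM in stroma, against 82.9 and 111 CPM in luminal and 259 and 230 CPM in basal cells (-4.09 ± 1.14, adjusted p = 0.0375; 0.0958 with the block). Pkp3, a desmosomal plakophilin, had 2.12 and 2.39 CPM in stroma, against 34.1 and 34.4 CPM in luminal and 46.8 and 39.0 CPM in basal cells (-4.08 ± 1.07, adjusted p = 0.0256; 0.0745 with the block). In all 3, both layers lay above stroma; Sfn and Pkp3 were lost without any of the 6 libraries (up to 0.349 and 0.245).

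More genes were called against luminal than against basal cells, which is a count of calls and not a test of distance. Against luminal cells 844 genes were higher (5.3%) and 584 lower (3.67%) in stroma, and against basal cells 88 (0.553%) and 203 (1.28%). In all, 1428 genes were called against luminal and 291 against basal cells. These counts were 2677 and 1804 without the A5 libraries, and 4368 and 3403 on wild-type libraries alone. With the pool block they were 1191 and 28. Of the 1045 genes higher than the mean of the layers, the median log2 fold change was 3.86 over luminal and 2.36 over basal cells, and the basal mean lay above the luminal mean in 785. Of the 434 lower genes the medians were -2.32 and -1.95. These medians rest on the choice of the genes by the same libraries and carry no test. With the 4 epithelial libraries as 1 group, 42 of 149 named calls were lost, among them those of Axl, Apoe, Fzd1, Nkd2, Slit2, Sema3c, Plat, Col4a2, Gpc6, Tgfbr3, Osr1, Id3, Csf1, Ackr3 and St14; the adjusted p was 0.352 for Tgfbr3, 0.309 for Nkd2, 0.185 for Slit2, 0.134 for Osr1 and 0.115 for Id3.

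Against each layer by itself, 63 genes were higher and 92 lower in stroma than in both, and none was higher than one and lower than the other. Celf2 (chromosome 2, 6539694 to 7509563, minus strand), a splicing factor, had 387 and 339 CPM in stroma, against 37.1 and 43.1 CPM in luminal and 32.7 and 38.5 CPM in basal cells (3.26 ± 0.30, adjusted p = 5.08e-06). Tac1, the precursor of substance P, had 40.4 and 39.3 CPM in stroma, against 0.813 and 0.868 CPM in luminal and 2.10 and 0.539 CPM in basal cells (5.28 ± 0.71, adjusted p = 0.000175). Man2a1, a Golgi mannosidase, had 184 and 197 CPM in stroma, against 37.9 and 36.5 CPM in luminal and 67.1 and 73.4 CPM in basal cells (1.90 ± 0.21, adjusted p = 2.76e-05). On the other side, Irx5, an Iroquois homeobox factor, had 2.75 and 2.60 CPM in stroma, against 21.1 and 29.5 CPM in luminal and 18.5 and 16.4 CPM in basal cells (-2.96 ± 0.44, adjusted p = 0.000414), and these 4 calls held with each library left out. Irx2, of the same family, had 8.25 and 11.9 CPM in stroma, against 57.2 and 56.8 CPM in luminal and 78.4 and 44.4 CPM in basal cells (-2.55 ± 0.43, adjusted p = 0.0013; 0.0605 without stromal F79).

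**Figure D4:**
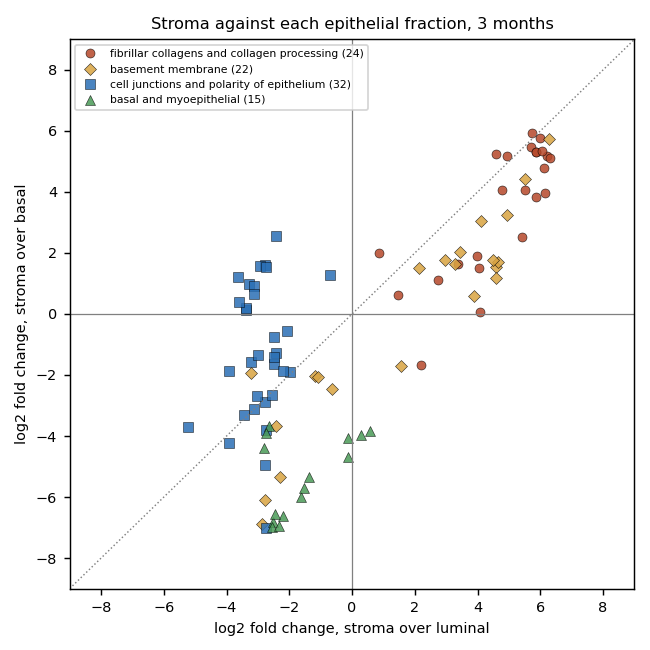
Log2 fold change of stroma over luminal (horizontal axis) and over basal cells (vertical axis) for genes of the collagen (24), basement membrane (22), junction (32) and basal marker (15) lists at 3 months. Collagen genes lie above 0 on both axes save Col12a1, junction genes lie left with 12 of 32 above 0 on the vertical axis, and basal markers lie low on the vertical axis.

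The same contrast was taken in the 12-month pools, which are other mice. The 12-month stromal library of pool A2 held 90.2 CPM of Krt14, against 2.23 CPM in that of pool A1, and 405 and 308 CPM in the basal libraries of A2 and A1; its part in the smaller folds of basal genes at 12 months was not tested. There 1006 genes were higher (6.32%) and 399 lower (2.51%) in stroma. Of the 1045 genes called higher at 3 months, 718 were called higher at 12 months, 68.7% of the 3-month and 71.4% of the 12-month list; of the 434 called lower, 217 were, 50% and 54.4%. None was called in the opposite direction. Of these genes 1042 and 432 kept their sign, where 47.4% and 52.6% of all genes had that sign at 12 months. Both ages share the same model and estimate of each gene's spread, so the shared calls are not independent of each other. The median log2 fold changes of the 2 groups were 3.06 and -2.15 at 3 months, and 2.87 and -1.70 at 12 months. By list, all 22 collagen genes and all 16 fibroblast markers called at 3 months were called again. Of the other lists, 25 of 27 proteoglycan genes, 11 of 13 epithelial factors and 5 of 11 junction genes were.

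A test of the difference between ages called 0 of 15917 genes (0%; 288 at an unadjusted p under 0.05, 0 by DESeq2 and 53 without the filter on low counts). At 12 months H19 had 8.94 to 9.18 CPM in stroma, against 3.09 to 11.1 CPM in epithelium (0.90, adjusted p = 0.662), and the 3-month minus 12-month difference in log2 fold change was 4.61 ± 1.46 (adjusted p = 1). At 12 months the log2 fold change of Col1a1 was 5.83 and that of Mmp2 5.04. Age and pool cannot be told apart here.

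**Figure D5:**
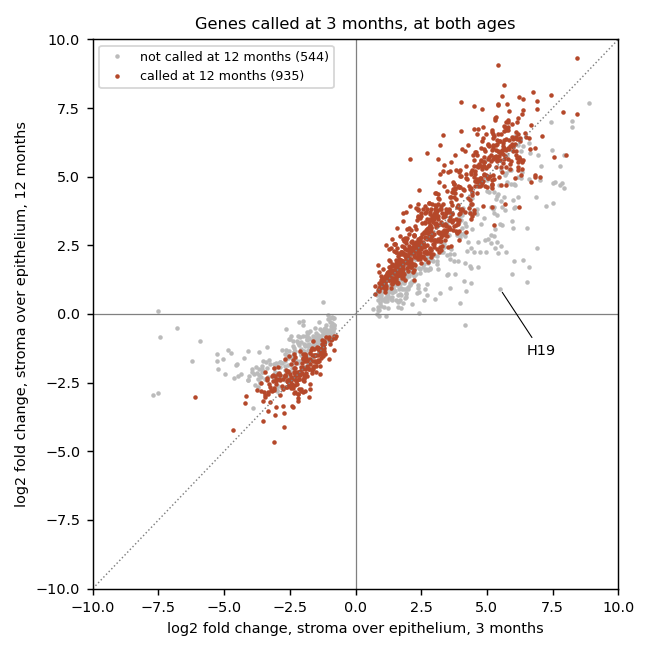
Log2 fold change of stroma over epithelium at 3 months (horizontal axis) and 12 months (vertical axis) for the 1479 genes called at 3 months; 935 of them were also called at 12 months and 544 were not. Of the genes higher at 3 months 1042 of 1045 lie above 0 on the vertical axis, of those lower 432 of 434 lie below 0, and H19 is marked. At 12 months 47.4% of all genes tested lay above 0 and 52.6% below.

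Transcripts of the mitochondrial genome were lower in stroma in 9 of 12 and higher in none (median -1.47; 9 with the pool block and 0 to 6 with 1 library left out). mt-Cytb, cytochrome b, had 2124 and 1176 CPM in stroma, against 3403 and 4139 CPM in luminal and 6036 and 4791 CPM in basal cells (-1.45 ± 0.35, adjusted p = 0.0135; 0.206 without stromal F81). Of 31 nuclear genes of the respiratory chain, 0 were called (median -0.39). Atp5b, an ATP synthase subunit, had 285 and 283 CPM in stroma, against 530 and 465 CPM in luminal and 516 and 373 CPM in basal cells (-0.73 ± 0.29, adjusted p = 0.125). The share of mitochondrial ribosomal RNA, given above, was also lower in both stromal libraries, but mt-Rnr1 and mt-Rnr2 were not called (adjusted p = 0.072 and 0.129). Both measures were lowest in the 2 stromal libraries, while among the epithelial libraries their order differed. Summed over the list, the transcripts had 11835 and 6555 CPM in stroma, against 18001.5 and 25333.7 CPM in luminal and 32604.4 and 26995.7 CPM in basal cells. Basal F79 thus had the highest sum and the lowest ribosomal share among the epithelial libraries.

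Skeletal muscle markers were also in the stromal libraries. Of 12 tested, Actn3, Myh4 and Pvalb were higher (7 without the A5 libraries, 0 with the pool block, 0 to 1 with 1 library left out), and 10 lay above every epithelial library. Over all genes 6.57% were called higher in the main fit and 18.7% lay above every epithelial library. Actn3, the fast-fibre alpha-actinin, had 59 counts in stroma, against 0 in epithelium, at least 71.3-fold higher by summed counts over summed totals (adjusted p = 0.0145, and 0.095 with the block). Acta1, the skeletal actin, had 10.4 and 5.64 CPM in stroma, against 0 CPM in both luminal libraries and 0 and 0.120 CPM in basal cells (adjusted p = 0.0513). The summed level of the list was 106 and 51.2 CPM in the stromal libraries, against 9.10 and 13.7 CPM in luminal and 9.94 and 16.1 CPM in basal cells, so stroma of pool F79 held the more. The part of muscle tissue in other differences was not tested.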

How the data were processed

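RNA was taken from mammary cells sorted on EpCAM and CD49f, amplified with NuGEN Ovation V2 from 5 ng, made into TruSeq Nano libraries from 100 ng of cDNA and sequenced on an Illumina HiSeq, per the labels' protocols. The authors deposited raw read counts per gene. TopHat2 2.0.13, HTSeq and GRCm38 are named in the submitters' processing notes; no source used here gives the counting options, strand included. Of 45706 genes, 15917 passed edgeR's filter (minimum count 10, minimum total 15) over 13 groups of 2 libraries. Differences were tested with edgeR 4.0.16 (R 4.3.3), robust quasi-likelihood, TMM scaling, 1 coefficient per group, Benjamini-Hochberg adjustment over all genes tested, and a threshold of 0.05; every adjusted p in the text is from it. CPM were computed from the deposited counts and TMM-scaled totals. On simulated data of 14560 genes made for the 3-month contrast, 81 of 100 genes changed 4-fold and 98 of 100 changed 8-fold were recovered, with 4 unchanged genes called. Every simulated gene had the same spread, no pool differences were put in, and only genes above a low expected count were changed. Those rates thus do not give the recovery in the real libraries, where larger differences such as that of Krt14 were not called. Counting intervals are exact at the 0.95 level and cover counting error only. Ratios of counts divide summed counts by the summed TMM-scaled totals of each side, so basal F81, the largest library, weighs most in epithelium. They are therefore not the modelled fold changes.

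Each p rests on the spread between pools within groups, estimated over all 26 libraries with the 2 A5 libraries among them. It is thus not the spread of the 3-month wild-type pools alone. The precision of low genes is limited by 3826528 to 16649904 counts per library. The same pool name marks the same 3 mice in each fraction, so the pool pairs the libraries; the correlation of deviations within pools at 3 months was 0.0105 for stroma with luminal, 0.0932 for stroma with basal and 0.122 for luminal with basal cells. The block is given where it changes a call or a count by over 1.5 times. No batch is named in the labels.

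The members and the 36 lists were chosen with earlier results of these data known. Named genes were, per list, up to 4 called genes of smallest p in each direction, the 10 largest rises and falls among genes of at least 10 CPM without overlap, 5 genes that differed from both layers in each direction and a fixed set of markers; any other gene was picked after its values were seen. Alternatives were DESeq2 1.42.0, RLE scaling, no filter, fewer libraries, the pool block, and each library left out. Mature microRNAs and promoters are from RefSeq (GRCm38.p6). Some genes of the lists are counted but not reported here by name.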

Additional observations from a re-analysis of the deposited data

How the results depend on the processing

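Genes called (stroma over epithelium at 3 months, over luminal, over basal, and over epithelium at 12 months) numbered 1479, 1428, 291 and 1405. They were 2345, 2482, 1754 and 2389 with no filter on low counts (and 53 for the difference between ages, against 0), and 2523 over luminal and 1394 over basal cells by DESeq2. Fitted on only the libraries compared they were 4194, 5324, 3439 and 3180, on wild-type libraries alone 3930, 4368, 3403 and 3881, and without the 2 A5 libraries 2508, 2677, 1804 and 2418. Taking the pool as a replicate block gave 882, 1191, 28 and 896, and there were 927 at 3 months with epithelium as 1 group of 4. With 1 library left out they ranged from 160 to 584, 411 to 724, 0 to 8 and 236 to 682, the count against epithelium at 3 months being lowest without stromal F79. RLE scaling kept all counts within 1.5 times. Of 149 named calls at 3 months, 0 reversed under any setting, 46 held with each library left out, 39 were lost with the block and 99 without stromal F79. The cause of these changes was not tested, save that fewer samples enter some fits. The difference between ages stayed at 0 calls under the settings other than no filter.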
